A study of Mus musculus with 6 samples.

Results

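The 10 chemokine genes described here, *Cxcl1*, *Cxcl2*, *Cxcl5*, *Cxcl12*, *Cxcl14*, *Cxcl16*, *Ccl2*, *Ccl7*, *Ccl9* and *Cx3cl1*, were taken from a table of 22063 genes by their symbols. All 10 were found and all 10 had enough counts to be among the 12862 genes tested. They were picked with their counts and the spread between replicates already known, so their differences between groups are given as a description and carry no p-value. RNA was sequenced from mouse primary cardiac fibroblasts with floxed *Tet3* alleles, on a C57BL/6J background by the study's methods. The cells received an adenovirus coding for green fluorescent protein (GFP, 3 libraries) or for Cre recombinase (CRE, 3 libraries), and all 6 libraries came from cells treated with TGF-β, which drives fibroblasts to become matrix-producing myofibroblasts. *Tet3* codes for an enzyme that oxidises 5-methylcytosine in DNA. Every group thus carried the floxed alleles, a virus and TGF-β, and no cells lacking TGF-β were analysed here. The study calls its replicates biological, and the labels do not say whether the libraries of a group came from separate cultures, so p-values measure the spread between these libraries only, which may be technical.

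Chemokines are small secreted proteins that attract leukocytes along a concentration gradient by way of receptors of the G protein-coupled class. Fibroblasts of the heart are known to release them after injury or on exposure to interleukin-1 and tumour necrosis factor, which act through the transcription factor NF-κB. *Cxcl1*, *Cxcl2* and *Cxcl5* code for ligands of CXCR2 that attract neutrophils, *Ccl2* and *Ccl7* for ligands of CCR2 that attract monocytes, and *Ccl9* for a ligand of CCR1. *Cxcl12* codes for the ligand of CXCR4 and of the scavenging receptor ACKR3, and *Cxcl14* for a chemokine made in many tissues without stimulation. *Cxcl16* and *Cx3cl1* code for chemokines made as membrane-bound proteins, which ADAM10 and ADAM17 can shed.

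*Tet3* was examined first as a check of the labels. Its normalized read count, in counts scaled to the size and composition of the library (CPM), was 64.9, 54.4 and 52.0 CPM in the GFP libraries 1, 2 and 3, against 34.5, 35.9 and 33.6 CPM in the CRE libraries. CRE averaged 60.8% of GFP, and permuting the 6 values exactly gave a two-sided p of 0.1, the smallest that 3 against 3 libraries allow. By edgeR's quasi-likelihood test it fell by 0.72 (SE 0.08) on the log2 scale (adjusted p of 5.36e-05). Total counts were between 17002126 and 20343590 per library, at which a count of 0 allows up to 0.156 to 0.187 CPM, counting error only. GFP replicate 1 stood apart from the other GFP libraries. The chi-square per degree of freedom between its counts and theirs was 12.1 and 9.38, against 4.05 between GFP replicates 2 and 3 and between 4.23 and 5.54 among the CRE libraries. Each chemokine is therefore given with and without it. This library was picked out from these same counts. Where it is the outlying library, leaving it out narrows the GFP group, so a smaller SE or p-value without it follows from that choice.

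The sequences below show how differently the members are marked for 2 features that are read from the genome alone, independent of these counts. The first is the pentamer ATTTA in the 3′ UTR, the core of the AU-rich elements that target transcripts for rapid decay. It was counted on the transcript strand in the longest complete coding transcript of each gene in GENCODE M21, overlapping copies included. *Cxcl1* had 7 copies in 592 bases, or 11.8 per kb, a density that 0.767% of 20738 genes reach. *Cxcl2* had 11 copies in 1494 bases (7.36 per kb, reached by 2.90% of genes), and *Cxcl5* had 5 in 1111 bases (4.50 per kb, reached by 9.94%). Among the monocyte attractants, *Ccl7* had 2 copies in 435 bases (4.60 per kb) and *Ccl2* had 1 in 275 bases (3.64 per kb). *Cxcl12* had 4 in 5188 bases (0.771 per kb), below the median of all genes of 1.25 per kb, and *Cxcl14* had 0 in 1149 bases. The windows of 30 bases with the most copies are printed for the members with the densest and for *Cxcl12*, with ATTTA in capitals. They lie in GRCm38 on the plus strand at chr5:90892606-90892635 (*Cxcl1*), chr5:90905327-90905356 (*Cxcl2*), chr5:90760646-90760675 (*Cxcl5*), chr11:82047254-82047283 (*Ccl7*), chr11:82037205-82037234 (*Ccl2*) and chr6:117180402-117180431 (*Cxcl12*).
Cxcl1 3′ UTR: gtcctATTTATTTAtgtATTTATTTAttcc
Cxcl2 3′ UTR: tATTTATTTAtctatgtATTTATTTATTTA
Cxcl5 3′ UTR: atctcacaagtgtATTTAgcaaaaatattt
Ccl7 3′ UTR: tattaatatttttATTTAattagccatgta
Ccl2 3′ UTR: taatattaaacttATTTAacttattgatgt
Cxcl12 3′ UTR: atccgaATTTAaataggacATTTAcatcgg
In *Cxcl1* and *Cxcl2* the window held 4 and 5 copies, in 2 runs of overlapping copies each, and in *Cxcl5*, *Ccl7* and *Ccl2* it held 1.

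The second feature is a motif of 10 letters bound by NF-κB, GGG and TTTCC with any 2 bases between them (N), searched on both strands in the 250 bases before the RefSeq start of each gene (GRCm38.p6). Of 32851 promoters, 1.41% held it. Promoters were found for 6 of the 10 members, and 3 of these held the motif. *Cxcl1* had it 89 and 71 bases before the start, *Cxcl2* 97 and 78 bases before the start, and *Ccl9* 35 bases before it, while *Cxcl12*, *Cxcl14* and *Cx3cl1* had no match in this window. *Cxcl5*, *Cxcl16*, *Ccl2* and *Ccl7* had no entry in the set of promoters searched here, so they were not examined. A match is a run of letters and does not show that the site is bound. The same windows held 10, 9 and 2 CG dinucleotides, the sites where cytosine is methylated, in *Cxcl1*, *Cxcl2* and *Ccl9*, and 14, 16 and 14 in *Cxcl12*, *Cxcl14* and *Cx3cl1*, against a median of 6 over all promoters. For *Cx3cl1* only 79 of the 250 bases lie before the start in GENCODE, and the rest lies within the gene as annotated there. The promoters of the pair with 2 matches each and of *Cxcl14*, with the most CG dinucleotides of the 6, are printed on the strand of the gene up to the base before its start in either annotation, with the motif in capitals. They lie in GRCm38 at chr5:90890995-90891240 (*Cxcl1*, plus strand), chr5:90903649-90903870 (*Cxcl2*, plus strand) and chr13:56296552-56296801 (*Cxcl14*, minus strand).
Cxcl1 promoter: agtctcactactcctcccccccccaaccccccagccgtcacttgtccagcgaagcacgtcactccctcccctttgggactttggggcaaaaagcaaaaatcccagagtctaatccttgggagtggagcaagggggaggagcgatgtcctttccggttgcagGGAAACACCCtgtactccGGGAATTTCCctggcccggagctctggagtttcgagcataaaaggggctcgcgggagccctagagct
Cxcl2 promoter: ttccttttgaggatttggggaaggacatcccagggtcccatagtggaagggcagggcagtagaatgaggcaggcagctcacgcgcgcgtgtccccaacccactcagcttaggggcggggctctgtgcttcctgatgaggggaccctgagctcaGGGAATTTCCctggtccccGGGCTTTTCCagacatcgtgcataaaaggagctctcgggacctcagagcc
Cxcl14 promoter: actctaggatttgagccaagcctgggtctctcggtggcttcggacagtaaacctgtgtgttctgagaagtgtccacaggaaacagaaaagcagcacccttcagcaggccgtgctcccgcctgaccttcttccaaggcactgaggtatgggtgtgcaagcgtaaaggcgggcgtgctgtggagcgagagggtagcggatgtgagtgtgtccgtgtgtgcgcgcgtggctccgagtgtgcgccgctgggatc
Both *Cxcl1* and *Cxcl2* held the 10-base run GGGAATTTCC, and the other match was GGAAACACCC in *Cxcl1*, on the opposite strand, and GGGCTTTTCC in *Cxcl2*. Methylation was not measured in these libraries.

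Of the 10 chemokines, 8 had all 3 CRE libraries below all 3 GFP libraries and 2, *Cxcl16* and *Cx3cl1*, had groups that overlapped in CPM. Over all tested genes, 29.6% had all CRE libraries below all GFP libraries and 30% had them all above, 59.6% together. The members were chosen on these values, so nothing is read from their count. Their median log2 fold change was -0.92, where that of all tested genes was 0.01. In bulk RNA, fewer cells that make a transcript and less of it per cell cannot be told apart. The plot of read counts by library shows the 6 values of each gene.

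**Figure D1:**
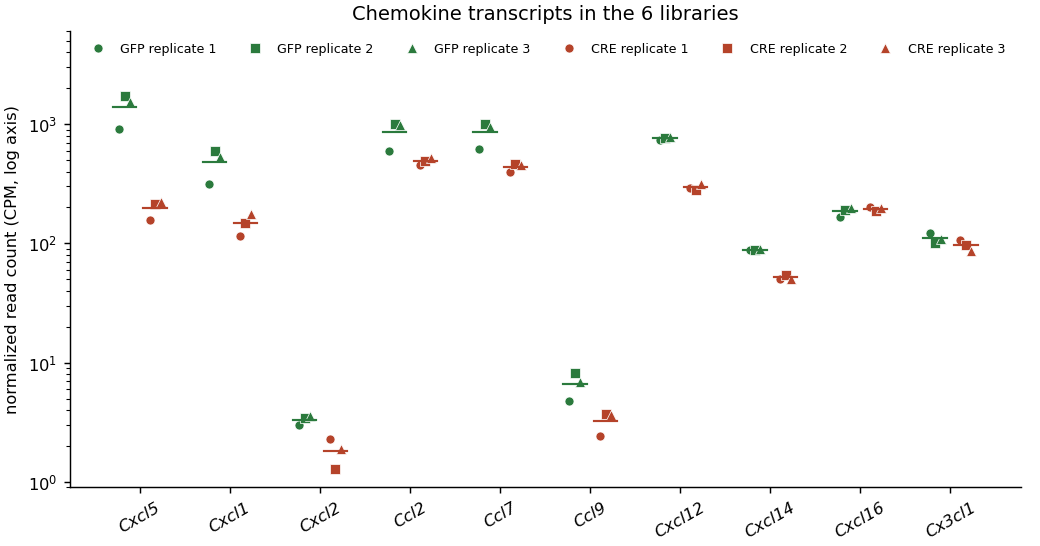
Normalized read counts (CPM, log axis) of the 10 chemokine genes in the 6 libraries, GFP in green and CRE in red, with a symbol for each replicate and a line at the group mean. The symbols of the groups are apart for 8 genes and overlap for *Cxcl16* and *Cx3cl1*, of which *Cxcl16* is higher in CRE without overlap in FPKM or with library size alone. GFP replicate 1 (green circle) is the lowest GFP library for 8 genes.

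*Cxcl5*, an attractant of neutrophils, had the lowest log2 fold change of the 10. It is on the plus strand at chr5:90759360-90761624 (GRCm38). Its read count was 909.3, 1725 and 1517 CPM in GFP replicates 1, 2 and 3 and 158.0, 215.1 and 222.7 CPM in the CRE replicates. The groups did not overlap, and GFP replicate 1 was the low library of its group. The mean was 1384 ± 423.7 CPM in GFP and 198.6 ± 35.4 CPM in CRE (SD, n = 3 each), so CRE stood at 14.35% of GFP. The log2 fold change was -2.80 (SE 0.21). The lowest GFP library was 4.08 times the highest CRE library. Without GFP replicate 1 the log2 fold change was -3.03 (SE 0.11). These values rest on 14625 to 30596 reads per GFP library and 2940 to 4218 per CRE library.

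*Cxcl1* and *Cxcl2*, further ligands of CXCR2, lie on the same chromosome at chr5:90891241-90893115 and chr5:90903871-90905938, both on the plus strand. *Cxcl1* had 314.7, 595.2 and 528.0 CPM in the GFP libraries and 115.3, 148.5 and 177.8 CPM in the CRE libraries. Its groups did not overlap, and replicate 1 was the lowest library of both. The mean was 479.3 ± 146.5 CPM in GFP and 147.2 ± 31.3 CPM in CRE (SD, n = 3 each), the latter 30.7% of the former. On the log2 scale the difference was -1.70 (SE 0.21) with all libraries and -1.93 (SE 0.13) without GFP replicate 1. *Cxcl2* was a low transcript, with 2.98, 3.44 and 3.59 CPM in the GFP libraries and 2.31, 1.27 and 1.90 CPM in the CRE libraries. CRE replicate 1 came closest to the GFP group, whose lowest library was 1.29 times as high. The log2 fold change of *Cxcl2* was -0.87 (SE 0.23), or -0.94 (SE 0.26) without GFP replicate 1, from 48 to 69 reads per GFP library and 23 to 43 per CRE library, at which counting alone gives a coefficient of variation of 13.0% and 17.1%.

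The stretch of chromosome 5 from *Cxcl5* to *Cxcl2* spans 147 kb and holds 7 chemokine genes. Between the members lie *Ppbp*, *Pf4*, *Cxcl3* and *Cxcl15*, of which *Cxcl15* had too few counts to be tested. *Cxcl3*, coding for another ligand of CXCR2, had 6.65, 24.5 and 16.8 CPM in the GFP libraries and 2.10, 5.10 and 3.80 CPM in the CRE libraries. GFP replicate 1 was again the low library of its group, and the groups did not overlap. By edgeR's quasi-likelihood test *Cxcl3* fell by 2.14 (SE 0.43) on the log2 scale (adjusted p of 0.00206). *Ppbp* and *Pf4*, coding for platelet chemokines, had log2 fold changes of -0.92 (SE 0.38) and -0.32 (SE 0.26) that did not pass the test with all libraries. Without GFP replicate 1, *Ppbp* passed at -1.11 (adjusted p of 0.0375 by edgeR's quasi-likelihood test).

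*Ccl2* and *Ccl7*, attractants of monocytes, lie within 12.0 kb on the plus strand, at chr11:82035571-82037453 and chr11:82045712-82047525. *Ccl2* had 594.3, 997.8 and 987.1 CPM in the GFP libraries and 458.1, 492.4 and 519.5 CPM in the CRE libraries. The groups did not overlap, but GFP replicate 1 was only 1.14 times the highest CRE library. *Ccl7* had 621.8, 1003 and 939.2 CPM in the GFP libraries and 396.6, 458.9 and 449.5 CPM in the CRE libraries, with the same low GFP library and no overlap. The CRE means were 57.0% of the GFP mean for *Ccl2* and 50.9% for *Ccl7*. Their log2 fold changes were -0.81 (SE 0.16) and -0.97 (SE 0.14), and without GFP replicate 1 they were -1.02 (SE 0.05) and -1.16 (SE 0.06). *Ccl2* overlaps *Gm17268* of the opposite strand, which had 0 counts. *Ccl11*, the neighbour of *Ccl7*, codes for the eosinophil attractant eotaxin. Its log2 fold change of -0.77 (SE 0.38) did not pass with all libraries, but did with the replicate number as a block. Without GFP replicate 1, its lowest GFP library, *Ccl11* passed at -1.12 (adjusted p of 0.00244 by edgeR's quasi-likelihood test). *Ccl8*, further along the chromosome, had a log2 fold change of -0.17 (SE 0.08) that did not pass. It passed at -0.25 without GFP replicate 1 (adjusted p of 0.0119 by the same test).

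*Ccl9* is on the minus strand at chr11:83572919-83578636. It had 4.79, 8.12 and 6.91 CPM in the GFP libraries and 2.42, 3.71 and 3.64 CPM in the CRE libraries, from 45 to 144 reads per library. Replicate 1 was the lowest of both groups, and the groups did not overlap. CRE averaged 49.3% of GFP, and the log2 fold change was -1.03 (SE 0.22), or -1.20 (SE 0.19) without GFP replicate 1. Near it on the same chromosome, *Ccl3* and *Ccl6* fell and *Ccl5* rose, with values given among the other chemokines.

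*Cxcl12* and *Cxcl14* differed between the groups with little spread within them. *Cxcl12*, on the plus strand at chr6:117168535-117181367, had 729.1, 770.5 and 776.5 CPM in the GFP libraries and 291.0, 279.8 and 317.4 CPM in the CRE libraries. All GFP libraries lay close together, and the lowest was 2.30 times the highest CRE library. The mean was 758.7 ± 25.8 CPM in GFP and 296.1 ± 19.3 CPM in CRE (SD, n = 3 each), the latter 39.0% of the former, and the log2 fold change was -1.36 (SE 0.05), or -1.39 (SE 0.05) without GFP replicate 1. *Cxcl14*, on the minus strand at chr13:56288643-56296551, had 88.8, 87.2 and 89.7 CPM in the GFP libraries and 50.7, 53.9 and 50.7 CPM in the CRE libraries. Here GFP replicate 1 did not stand out, at 100.4% of the mean of the other GFP libraries, and the groups did not overlap. The log2 fold change of *Cxcl14* was -0.77 (SE 0.05) both with and without that library, with the CRE mean at 58.5% of the GFP mean.

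*Cxcl16* and *Cx3cl1*, the membrane-bound chemokines, had groups that overlapped in CPM, but for *Cxcl16* this depended on the scaling. *Cxcl16*, on the minus strand at chr11:70453983-70459984, had 167.4, 191.7 and 199.6 CPM in the GFP libraries and 200.9, 187.5 and 196.6 CPM in the CRE libraries. Its log2 fold change was 0.07 (SE 0.06), was 0.23 when libraries were scaled by size alone, and turned to -0.0068 without GFP replicate 1. In the deposited FPKM it had 83.8, 97.5 and 100.6 in GFP and 113.3, 106.2 and 112.7 in CRE, so all CRE libraries lay above all GFP libraries, as they did with library size alone. *Cxcl16* overlaps *Zmynd15* of the opposite strand, which had 56 to 113 reads per library. *Cx3cl1*, on the plus strand at chr8:94772009-94782427, had 121.6, 100.6 and 108.1 CPM in the GFP libraries and 106.0, 96.9 and 85.5 CPM in the CRE libraries. GFP replicate 1 was its highest GFP library, at 116.5% of the mean of the others. The log2 fold change of *Cx3cl1* was -0.19 (SE 0.09), with -0.12 (SE 0.08) without GFP replicate 1 and -0.03 with library size alone.

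The spread between replicates split the chemokines. The highest GFP library was 1.90 times the lowest for *Cxcl5*, 1.89 times for *Cxcl1*, 1.68 times for *Ccl2* and 1.61 times for *Ccl7*. A spread at least as wide was seen for 5.46%, 5.5%, 8.04% and 9.31% of all tested genes. *Ccl9*, with fewer reads, had a ratio of 1.70 in GFP, which 7.83% of tested genes reach. For *Cxcl12* and *Cxcl14* the GFP ratio was 1.07 and 1.03, which 80.0% and 94.7% of tested genes reach or exceed. The CRE group ranked otherwise, with 1.81 for *Cxcl2* (reached by 5.08% of tested genes), 1.542 for *Cxcl1* and 1.535 for *Ccl9*. *Ccl2* and *Ccl7* had 1.13 and 1.16 there. The median over the 10 chemokines was 1.41 in the GFP group and 1.2 in the CRE group, where it was 1.14 and 1.12 over all tested genes.

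**Figure D2:**
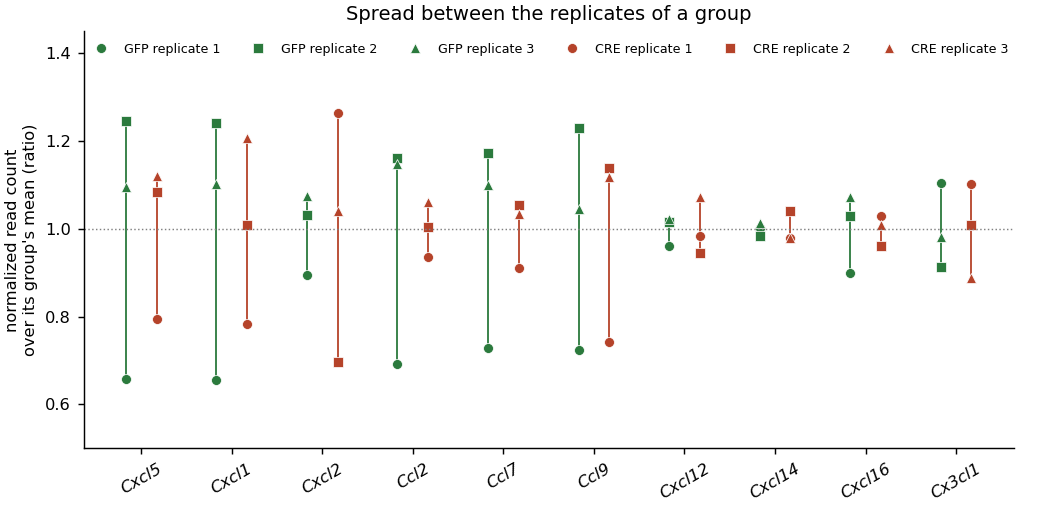
Normalized read count of each library divided by the mean of its group (ratio, vertical axis) for the 10 chemokine genes, GFP in green and CRE in red, with a line from the lowest to the highest library. GFP replicate 1 (green circle) is far below the other GFP libraries for *Cxcl5*, *Cxcl1*, *Ccl2*, *Ccl7* and *Ccl9* and close to them for *Cxcl12* and *Cxcl14*.

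GFP replicate 1 was at the low end of that spread. It was the lowest GFP library for 8 of the 10 chemokines and for 34.7% of all tested genes. It held 56.1% of the mean of the other GFP libraries for *Cxcl5*, 56.0% for *Cxcl1*, 59.9% for *Ccl2*, 63.7% for *Ccl9* and 64.0% for *Ccl7*. A ratio as low or lower was seen for 2.45%, 2.44%, 3.06%, 3.79% and 3.86% of tested genes. *Cxcl2* and *Cxcl12* were nearer to the other libraries, at 85.0% and 94.3%. CRE replicate 1 was the lowest CRE library for 6 of the chemokines. The share of all tested genes for which it was lowest was not computed, so nothing is read from that count. Without GFP replicate 1 the median log2 fold change of the 10 was -1.09.

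To see which transcripts shared this pattern, the 8807 genes averaging 10 CPM or more were ranked by the Pearson r of their log2 CPM with that of *Cxcl5* over the 6 libraries. The 5 nearest outside the 10 chemokines were *Fgf7*, *Kcne4*, *Chd3*, *Plscr4* and *Pde8a*, with r between 0.9981 and 0.9987. *Fgf7*, which codes for keratinocyte growth factor, had 153.0, 189.7 and 181.0 CPM in the GFP libraries and 66.6, 77.4 and 79.4 CPM in the CRE libraries. The libraries form 2 groups, so r reads mainly the gap between them, and 18.8% of the compared genes had an r of 0.9 or more. By deviations from the group means the nearest were *9530068E07Rik*, *Smim3*, *Chmp5*, *Zmpste24* and *Plcb1*, with r between 0.9929 and 0.9995, and 3.66% of genes had 0.9 or more. That measure ignores the size of the deviations and the gap between the groups. *9530068E07Rik*, *Chmp5* and *Zmpste24* were higher in CRE, by 0.17, 0.24 and 0.19 on the log2 scale, while *Smim3* and *Plcb1* had -0.73 and -0.56. *Chmp5* had 113.8, 121.4 and 119.9 CPM in the GFP libraries, a far narrower spread than that of *Cxcl5*. On that measure *Cxcl1*, *Ccl7* and *Ccl2* had 0.98, 0.97 and 0.94, *Cxcl12* had 0.52, *Cxcl14* had 0.08 and *Cx3cl1* had -0.88. All points share libraries and their depth, and 6 libraries leave these values as a description.

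Levels were compared between genes in FPKM, which divides by transcript length. In the GFP libraries the order ran from *Ccl7* (1008 ± 242 FPKM) and *Ccl2* (999 ± 268 FPKM) to *Cxcl5* (830 ± 255 FPKM), *Cxcl1* (475 ± 146 FPKM) and *Cxcl12* (310 ± 12.0 FPKM; SD, n = 3 each). Each of these overlapped the next in its range over libraries, but within each of the 3 GFP libraries *Ccl2* was above *Cxcl5*, *Cxcl5* above *Cxcl1* and *Cxcl1* above *Cxcl12*, while *Ccl7* was above *Ccl2* in 2. Below them stood *Cxcl16* (94.0 FPKM), *Cxcl14* (45.9 FPKM) and *Cx3cl1* (32.2 FPKM), each apart from its neighbours, and *Cxcl2* (2.82 FPKM) and *Ccl9* (2.08 FPKM), which overlapped. In the CRE libraries *Ccl2* (637 ± 41.9 FPKM) and *Ccl7* (574 ± 46.9 FPKM) led and overlapped each other. *Cxcl5* followed *Cxcl1* and *Cxcl12* there, with means of 133, 163 and 141 FPKM, and each of the 3 overlapped the next, as *Cxcl5* did *Cxcl16* at 111 FPKM. Within each CRE library *Ccl2* was above *Ccl7* and *Cxcl1* above *Cxcl5*, while *Cxcl12* was above *Cxcl5* in 2 of 3. *Cx3cl1* (31.4 FPKM) and *Cxcl14* (30.02 FPKM) overlapped in the CRE group, as did *Cxcl2* and *Ccl9* at 1.72 and 1.15 FPKM.

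The summed level of the 10 chemokines was 2744, 4460 and 4196 FPKM in the GFP libraries and 1665, 1868 and 1941 FPKM in the CRE libraries. *Cxcl5* made up 19.8%, 23.2% and 21.7% of that sum in GFP and 6.33%, 7.76% and 7.71% of it in CRE. The share of *Ccl2* went the other way, with 25.1% to 27.4% of the sum in GFP and 34.4% to 35.6% of it in CRE. Neither share overlapped between the groups, and the low level of GFP replicate 1 left its shares of *Cxcl5* and *Ccl2* close to those of the other GFP libraries.

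**Figure D3:**
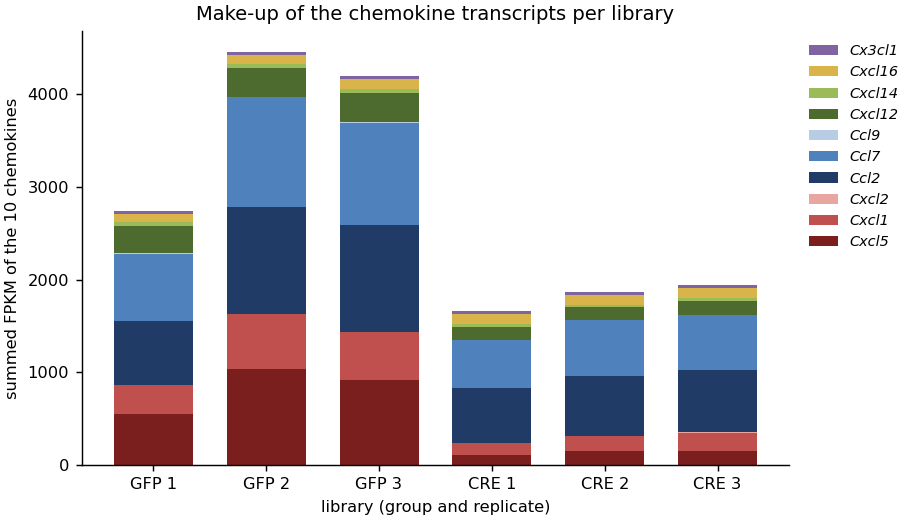
Stacked bars of the FPKM of the 10 chemokine genes in each of the 6 libraries (vertical axis, summed FPKM, from 0). The bars reach 2744 to 4460 FPKM in the GFP libraries and 1665 to 1941 FPKM in the CRE libraries, and the dark red part, *Cxcl5*, is 19.8% to 23.2% of the former and 6.33% to 7.76% of the latter.

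The other chemokine genes moved in both directions. Of 31 listed, 29 were in the table and 13 were tested. By edgeR's quasi-likelihood test at an adjusted p under 0.05, 3 rose, 4 fell and 6 did not pass, where 25.5% of all tested genes rose and 25.7% fell, 51.2% together. Without GFP replicate 1, 2 rose and 7 fell, where 3214 and 3303 of 13054 tested genes did. The median log2 fold change of the 13 was -0.32 with all libraries. Beside *Cxcl3*, those that fell included *Ccl3* (-2.59, SE 0.48) and *Ccl6* (-1.18, SE 0.28), ligands of CCR1 known from macrophages, which had at most 2.48 and 1.74 CPM. *Ccl5*, coding for RANTES, had 1.87, 4.79 and 7.59 CPM in the GFP libraries and 10.3, 12.2 and 12.5 CPM in the CRE libraries. *Ccl5* and *Ccl25*, coding for a ligand of CCR9, rose by 1.26 (SE 0.32) and 1.33 (SE 0.15) on the log2 scale. *Cxcl9*, an interferon-induced chemokine with at most 1.16 CPM in any library, rose by 1.30 (SE 0.42), but did not pass with DESeq2 or without GFP replicate 1 or 3 or CRE replicate 1 or 2. *Cxcl10*, another interferon-induced attractant of T cells, had 11.01, 65.2 and 50.5 CPM in the GFP libraries and 112, 108 and 50.5 CPM in the CRE libraries. GFP replicate 1 was again the low library and the groups overlapped, and its log2 fold change of 1.08 (SE 0.46) had an adjusted p of 0.0732 by edgeR's quasi-likelihood test. It was 0.64 without GFP replicate 1, and it passed with library size alone (1.25, adjusted p of 0.0389 by the same edgeR test), without GFP replicate 2 and without CRE replicate 3.

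Receptors for these ligands were mostly near 0. Of 23 in the table, 5 were tested, of which 3 fell, 0 rose and 2 did not pass, where 51.2% of all tested genes were called. Without GFP replicate 1 all 5 passed, 4 lower and 1 higher, and 6517 of 13054 tested genes did. With library size alone 3 were lower and 1 higher, where 2083 of all 12862 tested genes were lower and 5529 higher. *Cxcr2*, the receptor of *Cxcl1*, *Cxcl2* and *Cxcl5*, had at most 0.322 CPM in any library, and *Ccr2*, the receptor of *Ccl2* and *Ccl7*, at most 1 read, within the limit that a count of 0 allows. *Cxcr4* had 4.91, 3.78 and 4.21 CPM in the GFP libraries and 2.36, 1.16 and 1.95 CPM in the CRE libraries, and fell by 1.23 (SE 0.25) on the log2 scale. *Ackr3*, the scavenger of *Cxcl12*, had 58.0, 72.8 and 71.4 CPM in the GFP libraries and 43.8, 43.6 and 41.1 CPM in the CRE libraries, and fell by 0.66 (SE 0.08). *Ackr1*, which codes for a chemokine-binding receptor of venules and red cells, had 17.7, 16.1 and 16.6 CPM in the GFP libraries and 2.31, 2.49 and 3.54 CPM in the CRE libraries. It fell by 2.59 (SE 0.15) on the log2 scale, and no GFP library overlapped the CRE libraries.

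**Figure D4:**
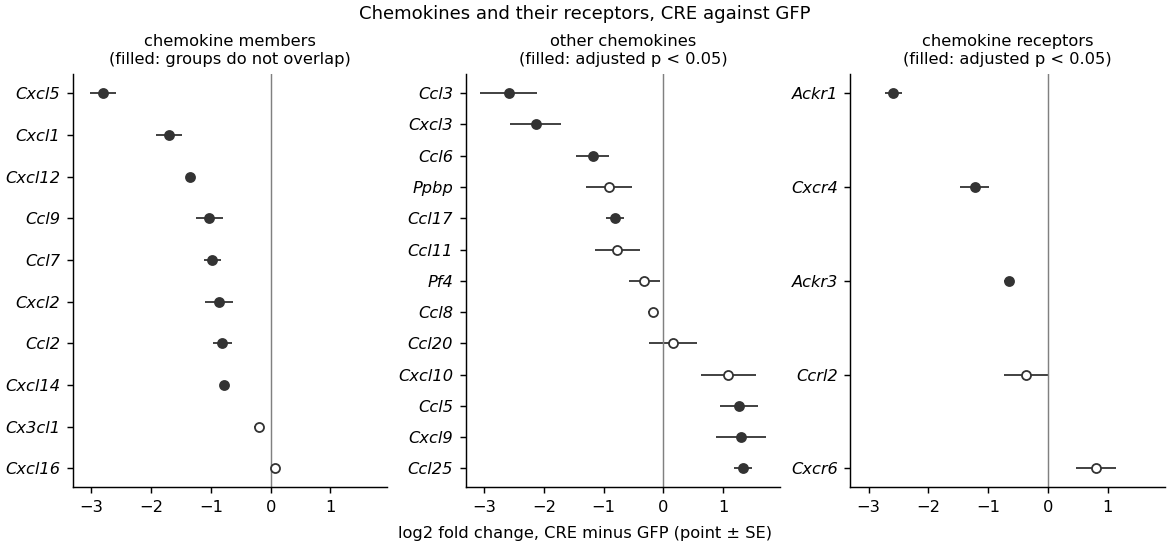
Log2 fold change of CRE against GFP (horizontal axis, point ± SE) of the 10 chemokine members, the 13 other chemokines tested and the 5 receptors tested, where values left of 0 are lower in CRE. Filled points mark members whose groups do not overlap, or other genes with an adjusted p under 0.05. *Cxcl5* at -2.80 and *Ackr1* at -2.59 are the lowest of their panels with *Ccl3* at -2.59, and *Ccl25*, *Cxcl9*, *Ccl5* and *Cxcl10* lie above 1, the last not past the threshold.

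Levels of other cell types were read beside these values, where 25.5% of all tested genes rose and 25.7% fell. *Ptprc*, the pan-leukocyte gene, was between 0.215 and 0.564 CPM, and *S100a9* of neutrophils had 0 counts in all libraries. The 10 leukocyte markers summed to 34.6 to 37.7 CPM in the GFP libraries and 21.5 to 25.5 CPM in the CRE libraries, most of it from *Lyz2*, with 2 of 6 tested lower. The 6 neutrophil markers summed to 23.9 to 27.6 and 11.7 to 14.1 CPM, carried by *Mmp8* and *Camp*, both of which fell. Of the 10 endothelial markers 8 fell and 1, *Eng*, rose. Their sum was 1100 to 1160 CPM in GFP and 982 to 1031 CPM in CRE, most of it from *Eng*, and the other 9 summed to 463 to 519 CPM in GFP and 204 to 236 CPM in CRE. Of 8 pericyte and smooth muscle markers 6 fell and 0 rose, with sums of 1002 to 1132 and 806 to 837 CPM, most of it from *Pdgfrb*, which fibroblasts also express. The other 7 summed to 77.0 to 84.0 CPM in GFP and 39.5 to 43.4 CPM in CRE. Of 10 fibroblast markers, among them *Col1a1*, *Dcn* and *Pdgfra*, 8 fell and 0 rose, with sums of 38850 to 40170 and 21790 to 23870 CPM. *Col1a1* alone averaged 13730 CPM in GFP and 8248 CPM in CRE. The other 9 summed to 24630 to 26550 CPM in GFP and 13920 to 15180 CPM in CRE, so fibroblast markers were the highest of these lists in every library. Of 6 mesothelial markers tested 3 rose and 1 fell, with sums of 11.3 to 12.1 and 12.1 to 15.5 CPM, and none of the cardiomyocyte markers was tested, at sums of 0.720 to 1.04 CPM. The part that any of these shifts has in the chemokine values was not tested.

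Cytokines, receptors and signalling genes known to act on chemokine transcription were taken as a list of 38, all tested, which holds activators as well as inhibitors such as *Il1rn*, *Nfkbia* and *Tnfaip3*. By edgeR's quasi-likelihood test 10 rose, 15 fell and 13 did not pass, with a median log2 fold change of -0.09, where 51.2% of all tested genes were called. With library size alone 14 rose and 11 fell, where 5529 of all tested genes rose and 2083 fell. *Il1r1*, the signalling receptor of interleukin-1, had 115.1, 177.3 and 151.1 CPM in the GFP libraries and 73.6, 88.9 and 90.7 CPM in the CRE libraries. GFP replicate 1 was its lowest GFP library and the groups did not overlap, and *Il1r1* fell by 0.81 (SE 0.13) on the log2 scale. The ligand *Il1a* fell by 1.5 (SE 0.24), the ligand *Il1b* fell by 2.06 (SE 0.37) and the receptor antagonist *Il1rn* fell by 2.53 (SE 0.35), and none of them was above 4.001 CPM in any library. *Il1rl1*, the receptor of interleukin-33, fell by 1.08 (SE 0.31), but did not pass on FPKM values or without CRE replicate 1 or GFP replicate 2.

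Of 10 genes of that list that code for NF-κB subunits or IκB proteins, a subset made after their values were seen, 5 rose, 1 fell and 4 did not pass, where 51.2% of all tested genes were called, and *Nfkb1* and *Nfkbib* passed as higher with library size alone. *Nfkbie*, coding for the inhibitor IκBε, had 9.39, 8.51 and 7.95 CPM in the GFP libraries and 16.1, 16.2 and 17.4 CPM in the CRE libraries. It rose by 0.95 (SE 0.10) on the log2 scale, and the NF-κB subunits *Nfkb2* and *Relb* rose by 0.71 (SE 0.05) and 0.60 (SE 0.07). The inhibitor *Nfkbia* and the subunit *Rela* rose by 0.42 (SE 0.07) and 0.18 (SE 0.05), but *Rela* did not pass without CRE replicate 1 or GFP replicate 3. *Nfkbiz*, coding for the coactivator IκBζ, fell by 0.69 (SE 0.06). *Tnf* had a log2 fold change of 0.55 (SE 0.30) that did not pass.

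Genes that cytokines are known to induce in fibroblasts beside the chemokines also split. Of 17 tested, 6 rose, 8 fell and 3 did not pass, with a median of -0.35, where 25.5% of all tested genes rose and 25.7% fell. At the study's fold threshold 2 were higher and 8 lower, and 967 and 1323 of all 12862 tested genes. *Il6*, coding for interleukin-6, had 214.1, 473.2 and 400.4 CPM in the GFP libraries and 112.4, 108.7 and 92.0 CPM in the CRE libraries. As for *Cxcl5*, GFP replicate 1 was the low library of its group and the groups did not overlap, and *Il6* fell by 1.80 (SE 0.23) on the log2 scale. *Cebpd*, coding for a transcription factor of the acute phase, and *Vcam1*, coding for an adhesion molecule, fell by 1.10 (SE 0.06) and 1.06 (SE 0.10). *Nos2*, coding for inducible nitric oxide synthase, fell by 1.13 (SE 0.26), with CRE replicate 2 at the level of GFP replicate 1. *Icam1*, coding for another adhesion molecule, had 65.8, 75.0 and 67.1 CPM in the GFP libraries and 146.6, 149.3 and 145.0 CPM in the CRE libraries, and rose by 1.08 (SE 0.05).

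Of 16 regulators of mRNA decay, which bind AU-rich or stem-loop elements, shorten poly(A) tails or remove the cap, 5 rose, 7 fell and 4 did not pass, with a median of -0.07, where 25.5% of all tested genes rose and 25.7% fell. With library size alone 7 rose and 4 fell, against 5529 and 2083 of all tested genes. Without CRE replicate 1, 2 rose and 7 fell, against 2881 and 2891 of 13021 tested genes. *Zfp36l1*, coding for a protein that binds ATTTA and promotes decay, had 132.0, 171.2 and 154.7 CPM in the GFP libraries and 58.5, 58.6 and 68.9 CPM in the CRE libraries. The groups did not overlap, and it fell by 1.30 (SE 0.10) on the log2 scale. *Zfp36l2*, its paralog, fell by 0.71 (SE 0.08), and *Hnrnpd* and *Khsrp*, coding for the AU-rich element binding proteins AUF1 and KSRP, fell by 0.77 (SE 0.05) and 0.50 (SE 0.06). Others of the list rose. *Zfp36*, of the same family as *Zfp36l1*, rose by 0.29 (SE 0.08), but did not pass without CRE replicate 1 or GFP replicate 3. *Elavl1* rose by 0.15 (SE 0.05), but did not pass in 6 of 16 alternatives. *Arid5a*, coding for a protein that stabilises interleukin-6 mRNA, rose by 0.78 (SE 0.08).

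**Figure D5:**
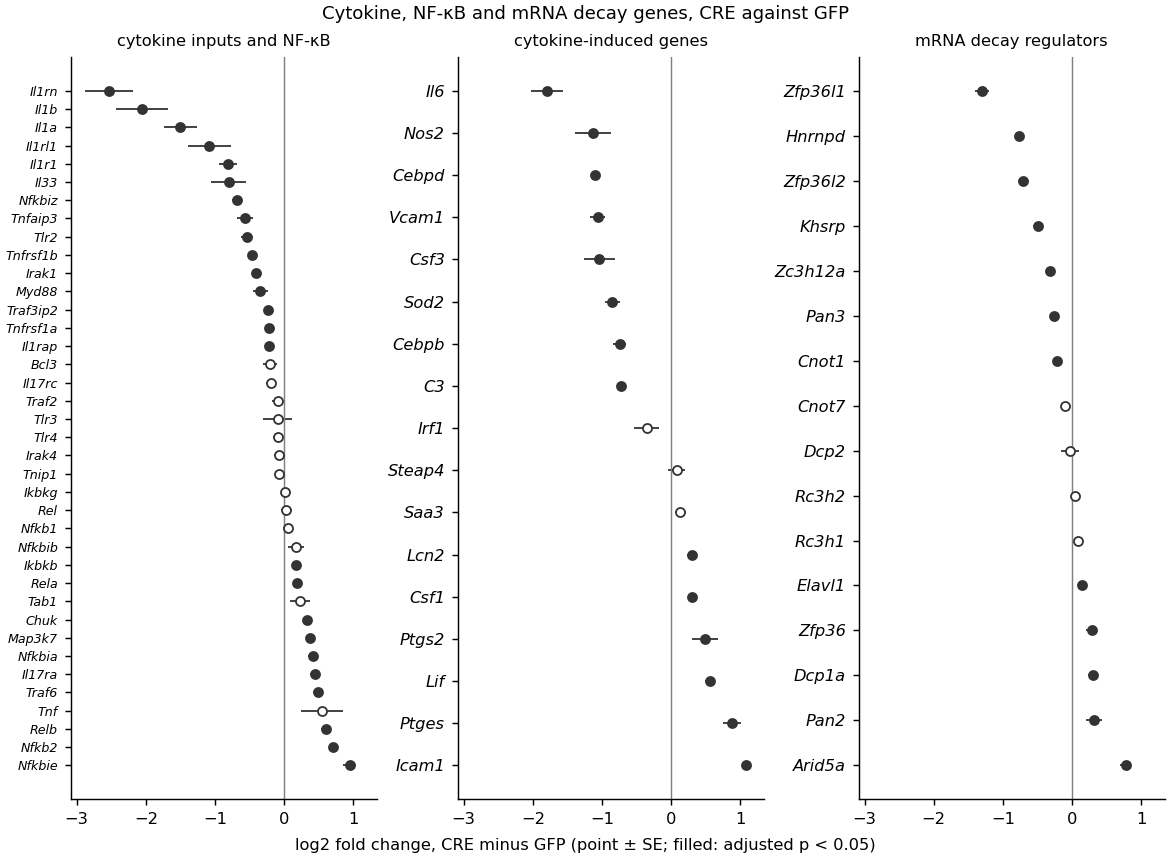
Log2 fold change of CRE against GFP (horizontal axis, point ± SE) for 38 cytokine and NF-κB genes, 17 cytokine-induced genes and 16 regulators of mRNA decay. Filled points have an adjusted p under 0.05. In the first panel 10 rose and 15 fell, in the second 6 and 8, and in the third 5 and 7, with *Il1rn*, *Il6* and *Zfp36l1* lowest in their panels.

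Enzymes that cut chemokines and proteoglycan genes that hold them at the cell surface made the last list. Of 25 tested, 6 rose, 13 fell and 6 did not pass, with a median of -0.18, where 25.5% of all tested genes rose and 25.7% fell. With library size alone 10 rose and 10 fell, against 5529 and 2083 of all tested genes. *Mmp13*, coding for a collagenase, had 14.1, 12.5 and 15.1 CPM in the GFP libraries and 1.61, 2.44 and 2.32 CPM in the CRE libraries, and fell by 2.71 (SE 0.16) on the log2 scale. *Mmp12* and *Mmp8*, coding for metalloproteinases that trim chemokines, fell by 1.78 (SE 0.13) and 1.12 (SE 0.10). *Adam17*, coding for a sheddase of *Cx3cl1*, had 90.1, 94.98 and 89.5 CPM in the GFP libraries and 121.4, 120.3 and 130.8 CPM in the CRE libraries, and rose by 0.44 (SE 0.05). Among the heparan sulfate enzymes, *Hs6st1* rose by 1.30 (SE 0.07) and *Hs3st1* fell by 1.77 (SE 0.21).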

How the data were processed

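RNA-seq was performed on 6 libraries, 3 GFP and 3 CRE, grouped by sample title. Per the study's methods, the authors used Trimmomatic, aligned to GRCm38 with HISAT2, counted with HTSeq-count and obtained FPKM with Cufflinks. Tool versions and the strand setting of the counting are not given in the sources used here. The study's methods name a stranded library kit and the labels a different one, so whether reads of overlapping genes of opposite strands were kept apart is not known. The deposited counts per gene are raw. The FPKM values per library deposited by the authors were used for levels between genes. The log2 fold change and p-value deposited by the authors, with a false discovery rate, come from their own comparison and were not used.

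The analysis of counts used edgeR 4.0.16 in R 4.3.3. After filterByExpr with a minimum count of 10 and a minimum total of 15, 12862 genes were scaled by TMM (factors of 0.944 to 0.947 for GFP and 1.05 to 1.06 for CRE). CRE and GFP were compared by the two-sided quasi-likelihood test with Benjamini-Hochberg adjustment over these genes, at an adjusted p under 0.05. SE is the absolute log2 fold change over the square root of F. On simulated data the test made more false calls than its threshold allows and missed part of the changed genes. Far fewer genes were changed there than were called in these libraries, so the simulated share of false calls cannot be carried over. Coordinates and UTRs are from GENCODE M21 and promoters from RefSeq (GRCm38.p6).

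The chemokines, the gene lists and the rule for names were chosen with earlier results of these data known. Named were the 10 chemokines, *Tet3*, up to 5 genes per related list with the largest absolute log2 fold change among called genes averaging 1 CPM or more, and the 5 genes nearest to *Cxcl5* on each measure. *Ppbp*, *Pf4*, *Cxcl15*, *Ccl8*, *Ccl11*, *Cxcl9*, *Cxcl10*, *Cxcr2*, *Ccr2*, *Il1b*, *Nfkb1*, *Nfkb2*, *Nfkbib*, *Relb*, *Rela*, *Nfkbia*, *Tnfaip3*, *Nfkbiz*, *Tnf*, *Zfp36*, *Elavl1*, *Adam17* and the cell type markers were named after their values were seen. The alternatives scaled libraries by RLE, by the upper quartile or by library size alone, kept genes with more than 1 count or with 10 counts in each library, used DESeq2 1.42.0, limma-voom (limma 3.58.1) or limma on log2(FPKM + 1) and on log2(FPKM + 0.1), added the replicate number as a block, or left out each library. The study's threshold is a fold change over 1.5 or under 0.66 at an unadjusted p under 0.05. Figures were drawn with matplotlib 3.10.9.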

Additional observations from a re-analysis of the deposited data

How the results depend on the processing

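Alternatives were fitted for the median log2 fold change of the 10 chemokines, which was -0.92. It was -0.60 with limma on log2(FPKM + 1) and between -1.09 and -0.75 with the 15 others. The scale of log2(FPKM + 1) understates the change of low genes and carries no TMM factors. Also without those factors, the median was -0.75 with log2(FPKM + 0.1) and -0.76 with library size alone. *Cxcl5* lay between -3.03 and -2.59 throughout, and *Tet3* between -0.78 and -0.55 and past the threshold throughout. Without each library in turn, the median lay between -1.09 and -0.85 and all genes called between 5641 and 6517. The same fits called 3 to 5 receptors, 6 to 9 other chemokines, 20 to 26 cytokine and NF-κB genes, 9 to 11 decay regulators, 17 to 19 processing genes and 13 to 14 cytokine-induced genes, and the 5 receptors were called without GFP replicate 1.

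At the study's threshold 2290 genes were called (967 higher and 1323 lower), with 10 of 38 cytokine and NF-κB genes, 4 of 16 decay regulators, 7 of 25 processing genes, 10 of 17 cytokine-induced genes, 9 of 13 other chemokines and 4 of 5 receptors. The higher share of all calls was 49.8%, but 72.6% when libraries were scaled by size alone and 72.2% to 72.3% with FPKM values, since library size alone shifts the log2 fold change of all genes by a median of 0.16. That scaling brought *Cxcl12* to -1.20 and *Cxcl14* to -0.61. With the replicate number as a block, 6633 genes were called and the median of the chemokines was -0.91. Same-numbered libraries did not deviate together (r of 0.05, 0.18 and -0.02 for replicates 1, 2 and 3), so the numbers were not read as a pairing. Low counts limit *Cxcl2* and *Ccl9*.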
